A study of Mus musculus with 8 samples.

Results

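The 35 genes described here encode the enzymes of glycolysis, the carriers that bring glucose in and lactate out, the oxygen-sensing factor Hif1a with its regulators, and genes known to be induced when oxygen is low. They were listed by symbol, and each was read at 1 probe set of the array, the one with a single annotated symbol and the highest mean log2 signal over the 8 arrays. Of the 35 genes, 33 had such a probe set, and Gpi1 and Eno1 had no probe set with a single symbol here. Gapdh was found only on probe sets that the array carries as controls. Outside the controls 18193 genes of the array had such a probe set, 32 of them members. These 32 entered the test over 45037 probe sets, and 30 of them were above background on at least 4 arrays. Background was set on each array at the 95th percentile of 84 probe sets of olfactory, vomeronasal and taste receptors, a signal of 66.6 to 106.9.

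Bone marrow of female BALB/c mice, 6 weeks old and with no genetic change stated, was cultured for 9 days with GM-CSF to give immature bone marrow-derived dendritic cells (BMDCs). The DCs were then treated for 12 h or 4 h with [BF/S+L/Ep], a chemically defined extract of the herb Echinacea purpurea, at 75 µg/mL, or for the same times with its vehicle, 0.1% DMSO, which all 4 groups received. Each group was measured on 2 Affymetrix mouse whole-genome arrays, and the values are MAS5 signals on a linear scale, brought to a trimmed mean of 500 on every array. The study speaks of biological replicates and of independent experiments, but gives no mouse or culture for each array, so the p-values measure the spread between these arrays, which may in part be technical. No source gives the day on which an array was hybridised or a culture harvested, so time in culture and harvest cannot be told apart.

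All 10 markers of conventional DCs were above background, as were 6 of 7 macrophage markers, 4 of 9 neutrophil, 4 of 6 platelet, 2 of 5 stromal, 1 of 5 mast cell and 1 of 5 T and NK cell markers, none of 5 B cell markers and none of 4 erythroid markers. Among the macrophage markers 2 of 7, Adgre1 and Cd14, passed the test of time in each treatment, and the list's summed signal was higher at 12 h. It was 68410 and 74710 in DCs given [BF/S+L/Ep] and 69780 and 69840 in DCs given DMSO at 12 h, against 59700 and 60500 in DCs given [BF/S+L/Ep] and 60640 and 61930 in DCs given DMSO at 4 h. The summed mast cell markers, most of them under background, were also higher at 12 h, at 406.1 to 606.2 against 312.3 to 420.2 at 4 h, without overlap within a treatment. The markers Zbtb46 of DCs and Csf3r of neutrophils passed the test of time in both treatments, and Clec10a of DCs and Cd8a of T cells with [BF/S+L/Ep]. Clec10a, alone of the markers, also passed for [BF/S+L/Ep] against DMSO, at 12 h and averaged over times. With [BF/S+L/Ep] the summed DC markers were 165900 to 170300 at 12 h against 170400 to 180100 at 4 h. The summed T and NK cell markers, most of them under background, were 374.4 to 376.6 against 193.4 to 193.6. With [BF/S+L/Ep] the summed platelet markers were 486.6 to 673.2 at 12 h against 678.9 to 725.4 at 4 h. The DC, T and NK cell and platelet sums overlapped between times with DMSO. The neutrophil sum did so only with [BF/S+L/Ep], at 3932 to 3982 against 3623 to 3792 with DMSO. Between treatments, the T and NK cell and mast cell sums did not overlap at 12 h, at 280.4 to 316.7 and 406.1 to 447.3 with DMSO. At 4 h the macrophage, platelet (540.2 to 551.5 with DMSO) and B cell sums did not. The 3' to 5' ratio of the Gapdh control probe sets, a sign of RNA integrity read here on a member gene, was 0.652 to 0.685 at 12 h against 0.702 to 0.756 at 4 h, while that of the actin control probe sets overlapped, at 1.18 to 1.24 at 12 h against 1.21 to 1.26 at 4 h. The part of these values in the changes with time given next, and in the differences between treatments given later, was not tested. In such a mixed culture, fewer cells of a type and less RNA per cell cannot be told apart.

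Glycolysis splits glucose into pyruvate in the cytosol and yields ATP without oxygen, and lactate dehydrogenase turns the pyruvate into lactate so that the pathway can run on. When oxygen is low, the prolyl hydroxylases stop marking the HIF alpha subunit for destruction, and the stabilised factor switches on most of these enzymes together with genes such as Vegfa and Bnip3. In DCs and macrophages the same program is known to be raised by microbial stimuli at normal oxygen, and the extent of glycolysis goes with the activation of these cells.

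The first question was whether these genes held their level between 4 h and 12 h of treatment. They did not move as a block. In DCs given [BF/S+L/Ep] 5 of the 32 tested members were higher at 12 h than at 4 h and 5 were lower at an adjusted p under 0.05 (limma's moderated test, Benjamini-Hochberg over all probe sets), while 1.55% of all probe sets tested were called higher and 1.31% lower. In DCs given DMSO 4 members were higher and 5 lower, while 1.18% of all probe sets were called higher and 0.921% lower. Bright probe sets are called more often, so the members are better read against genes above background, each at 1 probe set, of which 3.60% were called higher and 3.51% lower in DCs given [BF/S+L/Ep], and 2.97% higher and 2.58% lower in DCs given DMSO. The genes that rose were the factor Hif1a, the glucose carrier Slc2a1, the regulatory enzyme Pfkfb3, the angiogenic factor Vegfa and, with [BF/S+L/Ep], Pfkl. Those that fell were enzymes of the pathway itself, Pfkp, Tpi1, Pgk1 and Ldha in both treatments and Aldoc with DMSO, together with the mitochondrial gene Higd1a with [BF/S+L/Ep].

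**Figure D1:**
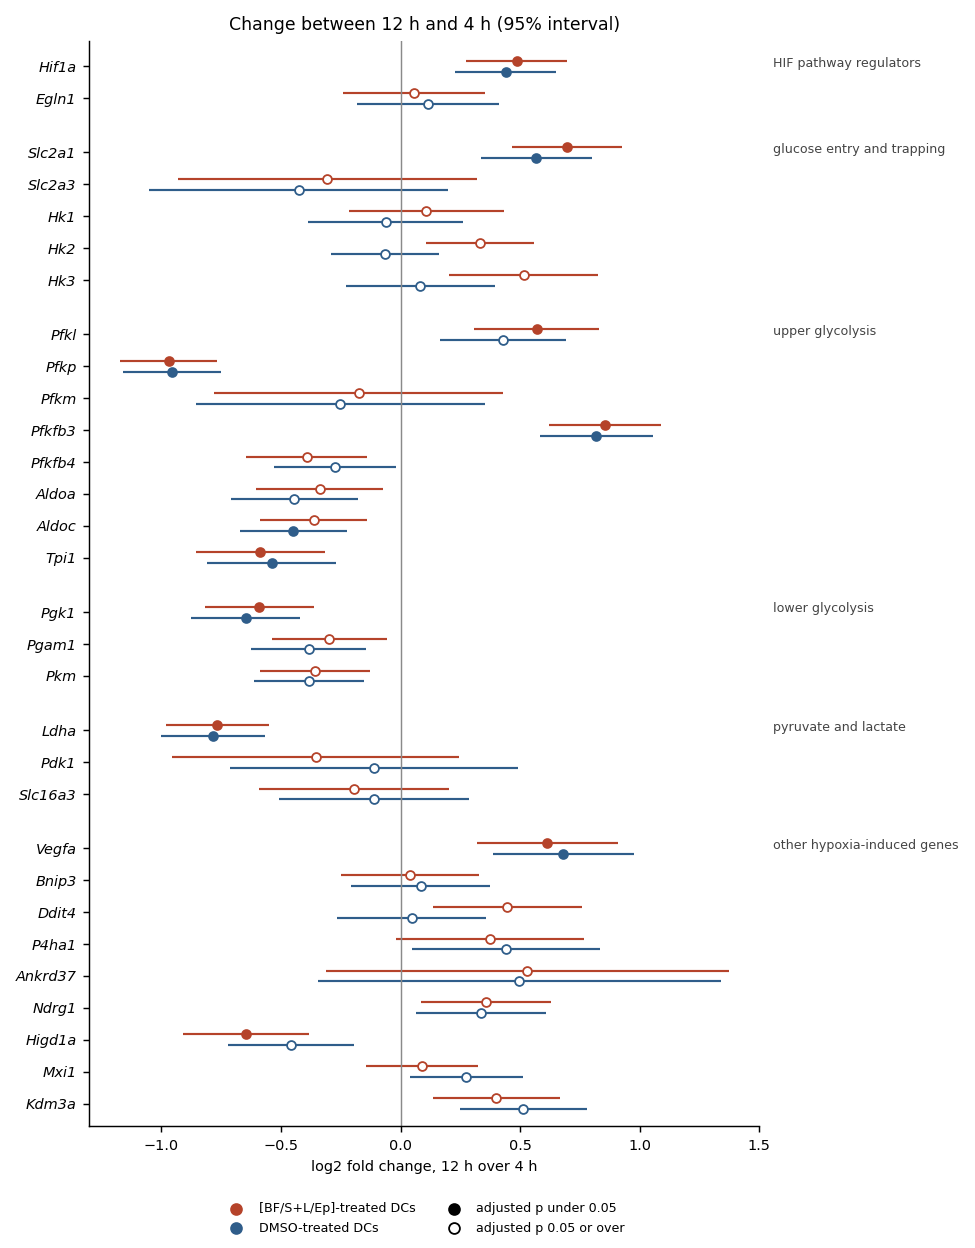
Change between 12 h and 4 h for the 30 members above background, grouped by role. The horizontal axis is the log2 fold change, 12 h over 4 h, with its 95% interval, for DCs given [BF/S+L/Ep] (red, upper of each pair) and DCs given DMSO (blue, lower), and filled points had an adjusted p under 0.05. Pfkfb3 lies farthest to the right, at 0.86 and 0.82, and Pfkp farthest to the left, at -0.97 and -0.96.

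Among the regulators, Hif1a, which encodes the oxygen-regulated alpha subunit of the factor, read 13929.5 and 14859 at 12 h against 10699.8 and 9879 at 4 h in DCs given [BF/S+L/Ep], and 13910.1 and 14013 at 12 h against 10232 and 10342 at 4 h in DCs given DMSO. Both arrays at 12 h lay above both arrays at 4 h in each treatment. The log2 change was 0.48 (SE 0.10, limma adjusted p = 0.017) with [BF/S+L/Ep] and 0.44 (SE 0.10, adjusted p = 0.0344) with DMSO. The other 3 probe sets of Hif1a also read higher at 12 h, and 1 of them passed the test with [BF/S+L/Ep], at a log2 change of 0.98. Egln1, the prolyl hydroxylase that marks the factor for destruction under normal oxygen, read 922 to 1158 over the 8 arrays and its groups overlapped between times with [BF/S+L/Ep]. Its log2 change was 0.06 (95% interval -0.24 to 0.35) with [BF/S+L/Ep] and 0.11 (-0.18 to 0.41) with DMSO. Egln3, the hydroxylase that is itself induced by the factor, read 42.8 to 86 and was under background on all arrays but the second of [BF/S+L/Ep] at 4 h, so it has no fold change here.

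Glucose enters DCs mainly through facilitative carriers, and hexokinases then trap it as its phosphate. Slc2a1, the carrier GLUT1, read 3701 and 3538 at 12 h against 2372 and 2105 at 4 h in DCs given [BF/S+L/Ep], and 3422 and 3188 at 12 h against 2161 and 2299 at 4 h in DCs given DMSO. The arrays at 12 h stood clear of those at 4 h in both treatments, with a log2 change of 0.70 (SE 0.11, limma adjusted p = 0.00307) with [BF/S+L/Ep] and 0.57 (SE 0.11, adjusted p = 0.0138) with DMSO. Its other 2 probe sets read 0.55 to 0.67 on the same log2 scale. Of these, 1 passed with [BF/S+L/Ep] (limma adjusted p = 0.0336), and neither passed with DMSO (adjusted p = 0.0859 and 0.0567). The second carrier, Slc2a3, was dim, at 163 to 365, and its interval at 12 h against 4 h reached -0.93 to 0.32 with [BF/S+L/Ep] and -1.05 to 0.20 with DMSO. None of the 3 hexokinases passed the test of time. Hk1, the isoform found in most cells, had a log2 change of 0.11 with [BF/S+L/Ep] and -0.06 with DMSO. Hk2, the isoform that HIF induces, read 1914 and 1939 at 12 h against 1530.0 and 1531 at 4 h in DCs given [BF/S+L/Ep], and 1777 and 1808 at 12 h against 1904 and 1848 at 4 h in DCs given DMSO. Its arrays at 12 h lay above those at 4 h with [BF/S+L/Ep] and below them with DMSO, at log2 changes of 0.33 (limma adjusted p = 0.134) and -0.06 (adjusted p = 0.889). Hk3, the hexokinase of myeloid cells, had log2 changes of 0.52 (adjusted p = 0.0864) with [BF/S+L/Ep] and 0.08 (adjusted p = 0.903) with DMSO. Its second probe set, above background on all 8 arrays, had the larger change with DMSO instead. It read 0.11 with [BF/S+L/Ep] and 0.40 with DMSO, and did not pass.

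The commitment step of glycolysis is the step catalysed by phosphofructokinase, and its 3 subunit genes did not move alike with time. Pfkp, the platelet-type subunit, read 2996 and 3011 at 12 h against 6011 and 5759.9 at 4 h in DCs given [BF/S+L/Ep], and 3036 and 3106 at 12 h against 5902 and 6028 at 4 h in DCs given DMSO. Replicates differed little beside the gap between times, and at 12 h the mean was 0.51 of that at 4 h with [BF/S+L/Ep] and 0.515 of it with DMSO, the largest changes of the 30 members above background. The log2 change was -0.97 (SE 0.10, limma adjusted p = 8.51e-05) with [BF/S+L/Ep] and -0.96 (SE 0.10, adjusted p = 0.000104) with DMSO. A dimmer second probe set of Pfkp missed the test at log2 changes of -0.22 with [BF/S+L/Ep] and -0.47 with DMSO, and another near background read 0.58 with [BF/S+L/Ep] and -0.46 with DMSO. With the probe sets of the gene averaged, the call was lost in both treatments, at -0.20 with [BF/S+L/Ep] and -0.63 with DMSO. Pfkl, the liver-type subunit, moved the other way and read 1793 and 1646 at 12 h against 1146 and 1172 at 4 h in DCs given [BF/S+L/Ep], and 1436 and 1549 at 12 h against 1039 and 1183 at 4 h in DCs given DMSO. It rose with [BF/S+L/Ep] by 0.57 (SE 0.12, limma adjusted p = 0.0233) and read 0.43 (SE 0.12, adjusted p = 0.109) with DMSO. Its other 2 probe sets missed the test, at 0.50 and 0.60 with [BF/S+L/Ep] and 0.50 and 0.06 with DMSO, and with the probe sets averaged the call with [BF/S+L/Ep] was lost, at 0.56 (adjusted p = 0.0734). Pfkm, the muscle-type subunit, was dim, at 204 to 357, and read log2 changes of -0.18 (-0.78 to 0.43) with [BF/S+L/Ep] and -0.25 (-0.86 to 0.35) with DMSO.

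Pfkfb3 and Pfkfb4 make and remove the bisphosphate that is the strongest activator of phosphofructokinase, with Pfkfb3 weighted heavily to making it. Pfkfb3 read 3605 and 3435 at 12 h against 1834 and 2065 at 4 h in DCs given [BF/S+L/Ep], and 3375 and 3741 at 12 h against 2049 and 1979 at 4 h in DCs given DMSO. Every array at 12 h was above every array at 4 h, and the gene rose 1.81-fold with [BF/S+L/Ep] and 1.77-fold with DMSO, the largest rises among members above background. On the log2 scale this was 0.86 (SE 0.11, limma adjusted p = 0.000748) with [BF/S+L/Ep] and 0.82 (SE 0.11, adjusted p = 0.0012) with DMSO. A dimmer second probe set of Pfkfb3 missed the test, at 0.725 (adjusted p = 0.271) with [BF/S+L/Ep] and 0.465 (adjusted p = 0.589) with DMSO. With both averaged the call was kept in each treatment. Pfkfb4 read 1169 and 1062 at 12 h against 1460.3 and 1465 at 4 h in DCs given [BF/S+L/Ep], and 1049 and 1096 at 12 h against 1314 and 1278 at 4 h in DCs given DMSO. It leaned the opposite way without passing the test, at -0.39 (adjusted p = 0.112) with [BF/S+L/Ep] and -0.27 (adjusted p = 0.356) with DMSO.

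Below that step the members that encode enzymes all read lower at 12 h. Of the aldolases, which split the sugar, Aldoc read 4014 and 3552 at 12 h against 4815 and 4904 at 4 h in DCs given [BF/S+L/Ep], and 3290.0 and 3545 at 12 h against 4797 and 4530.4 at 4 h in DCs given DMSO. Its log2 change was -0.36 (limma adjusted p = 0.0923) with [BF/S+L/Ep], short of the threshold, and it fell by 0.45 (adjusted p = 0.0428) with DMSO. Aldoa, the main isoform of most cells, read 12810.4 and 15519.7 at 12 h against 16332 and 19484 at 4 h in DCs given [BF/S+L/Ep], and 13749 and 13552 at 12 h against 19404 and 17803 at 4 h in DCs given DMSO. At this probe set the change missed the test, at -0.34 (limma adjusted p = 0.204) with [BF/S+L/Ep] and -0.44 (adjusted p = 0.0975) with DMSO, while 1 of its other 4 probe sets passed with DMSO at -0.53 (adjusted p = 0.0269). Tpi1, which interconverts the triose phosphates, read 3443 and 4039.7 at 12 h against 5074 and 6192 at 4 h in DCs given [BF/S+L/Ep], and 3541 and 3968 at 12 h against 5679.5 and 5224 at 4 h in DCs given DMSO. Its log2 change was -0.59 (SE 0.12, limma adjusted p = 0.0227) with [BF/S+L/Ep] and -0.54 (SE 0.12, adjusted p = 0.0434) with DMSO, and both other probe sets of the gene passed in both treatments, at -0.50 to -0.64.

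Gapdh, which makes the first high-energy intermediate of the pathway, read 32886 and 36424 at 12 h against 43993 and 42669 at 4 h in DCs given [BF/S+L/Ep], and 33794 and 37395 at 12 h against 43821 and 44423 at 4 h in DCs given DMSO. When the 64 control probe sets were added to the test, this probe set read -0.32 (limma adjusted p = 0.173) with [BF/S+L/Ep] and -0.31 (adjusted p = 0.232) with DMSO, and of the other 2, 1 passed with [BF/S+L/Ep] at -0.48 (adjusted p = 0.0376). Gapdh is often used to scale other genes, and its arrays at 12 h were all below its arrays at 4 h. Pgk1, the first ATP-yielding enzyme, read 11583 and 13185 at 12 h against 18108 and 19172 at 4 h in DCs given [BF/S+L/Ep], and 11045 and 11992 at 12 h against 18279.8 and 17765 at 4 h in DCs given DMSO. It stood at 0.664 of its 4 h mean with [BF/S+L/Ep] and 0.639 of it with DMSO, a log2 change of -0.59 (SE 0.10, limma adjusted p = 0.00795) with [BF/S+L/Ep] and -0.65 (SE 0.10, adjusted p = 0.00575) with DMSO. Its other 2 probe sets read -0.60 to -1.14, and 1 of them missed the test with [BF/S+L/Ep] (adjusted p = 0.0571). Pgam1, a phosphoglycerate mutase, and Pkm, the pyruvate kinase of DCs and most other tissues, read lower on both 12 h arrays than on both 4 h arrays in each treatment without passing the test. With [BF/S+L/Ep] the log2 change was -0.30 (limma adjusted p = 0.226) for Pgam1 and -0.36 (adjusted p = 0.108) for Pkm, and with DMSO it was -0.38 (adjusted p = 0.119) and -0.38 (adjusted p = 0.103).

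Ldha, the subunit of lactate dehydrogenase that favours lactate, read 9527 and 9696 at 12 h against 15954 and 16746 at 4 h in DCs given [BF/S+L/Ep], and 9171 and 10283 at 12 h against 16679 and 16760.2 at 4 h in DCs given DMSO. The gap between times was several times the gap between replicates, and Ldha at 12 h was 41.2% lower with [BF/S+L/Ep] and 41.8% lower with DMSO. Its log2 change was -0.77 (SE 0.10, limma adjusted p = 0.000885) with [BF/S+L/Ep] and -0.78 (SE 0.10, adjusted p = 0.000893) with DMSO. Slc16a3, the carrier that exports lactate, read 644 to 948 with overlapping groups, at -0.20 (-0.59 to 0.20) with [BF/S+L/Ep] and -0.11 (-0.51 to 0.29) with DMSO. Pdk1, a kinase that inhibits pyruvate dehydrogenase inside the mitochondrion, was dim, at 166 to 440.3, and read -0.36 (-0.96 to 0.25) with [BF/S+L/Ep] and -0.11 (-0.71 to 0.49) with DMSO.

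**Figure D2:**
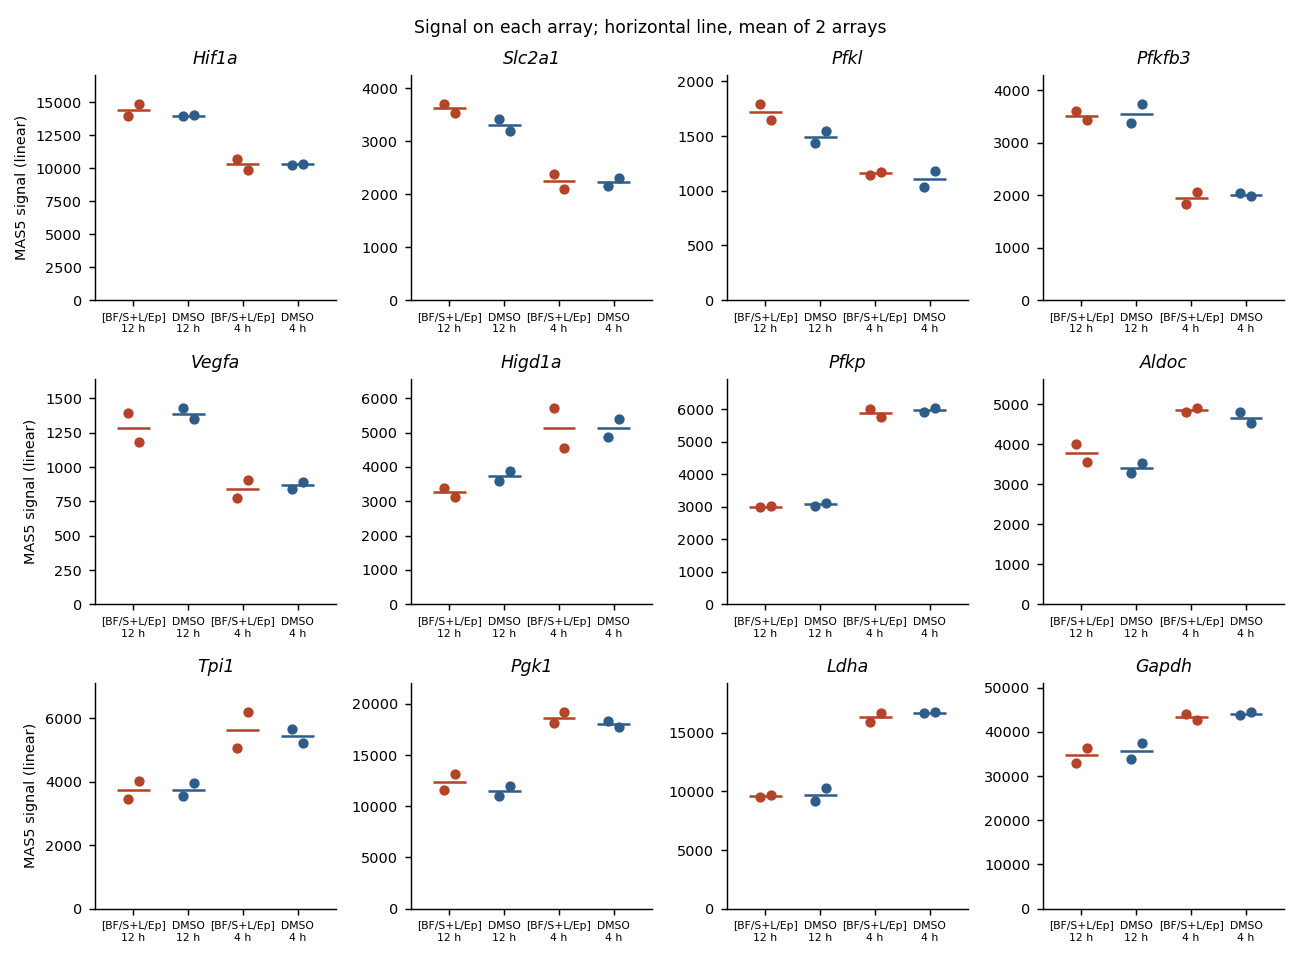
MAS5 signal (linear, vertical axis, from 0) on each of the 8 arrays for the 11 members that passed the test of time in either treatment, and for Gapdh. Points are single arrays, lines the mean of 2 arrays, red for [BF/S+L/Ep] and blue for DMSO. In every panel the 2 groups at 12 h stand apart from the 2 groups at 4 h, while red and blue lie closer at each time.

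The remaining members are genes of angiogenesis, collagen synthesis, mitochondrial turnover and growth control that low oxygen induces. Most of the 9 above background read higher at 12 h, 8 of them in each treatment, but only Vegfa passed. Vegfa, which drives vessel growth, read 1394 and 1182 at 12 h against 775 and 907 at 4 h in DCs given [BF/S+L/Ep], and 1429 and 1351 at 12 h against 842 and 892 at 4 h in DCs given DMSO. The 12 h arrays were clear of the 4 h arrays, with a log2 change of 0.61 (SE 0.14, limma adjusted p = 0.029) with [BF/S+L/Ep] and 0.68 (SE 0.14, adjusted p = 0.0199) with DMSO. A dimmer second probe set of Vegfa read 0.22 with [BF/S+L/Ep] and 0.27 with DMSO and did not pass, and with both averaged the call was lost. Higd1a, a small protein of the inner mitochondrial membrane, was the exception in direction and read 3394 and 3121 at 12 h against 5708 and 4536 at 4 h in DCs given [BF/S+L/Ep], and 3598 and 3879.8 at 12 h against 4876 and 5392 at 4 h in DCs given DMSO. It fell with [BF/S+L/Ep], at -0.64 (SE 0.12, limma adjusted p = 0.0117), and read -0.46 (SE 0.12, adjusted p = 0.0846) with DMSO, while its other 2 probe sets were dim and missed the test. With the probe sets averaged the call was lost, at -0.35 (adjusted p = 0.18).

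Kdm3a, a histone demethylase, lay just outside the threshold with DMSO. It read 1738 and 1854 at 12 h against 1341 and 1378 at 4 h in DCs given [BF/S+L/Ep], and 1665 and 2022 at 12 h against 1295 and 1276 at 4 h in DCs given DMSO, a log2 change of 0.40 (limma adjusted p = 0.119) with [BF/S+L/Ep] and 0.51 (adjusted p = 0.0506) with DMSO. P4ha1, a collagen prolyl hydroxylase, read 0.37 with [BF/S+L/Ep] and 0.44 with DMSO, and Ndrg1, a stress-responsive gene, 0.36 with [BF/S+L/Ep] and 0.34 with DMSO. At these probe sets every 12 h array of both genes was above every 4 h array of the same treatment. Of the other 4 probe sets of Ndrg1, 1 read 0.57 with [BF/S+L/Ep] and 0.58 with DMSO, and the other 3 read -0.05 to 0.13 with [BF/S+L/Ep] and -0.05 to 0.18 with DMSO, none passing. Ddit4 read 0.45 (SE 0.14, limma adjusted p = 0.146) with [BF/S+L/Ep], both 12 h arrays above both 4 h arrays. With DMSO it read 0.05 (adjusted p = 0.952), and the difference between treatments, 0.40, did not pass. The rest were closer to no change or less precise. Mxi1, an antagonist of Myc, read 0.09 with [BF/S+L/Ep] and 0.28 with DMSO. Bnip3, which marks mitochondria for removal, read 1032 to 1293 over all arrays and 0.04 with [BF/S+L/Ep] and 0.08 with DMSO between times. Ankrd37 was dim, at 81.6 to 209, with intervals of -0.31 to 1.37 with [BF/S+L/Ep] and -0.35 to 1.34 with DMSO. P4ha2, the second collagen prolyl hydroxylase, read 2.9 to 63.5, under background on all 8 arrays, and is given no fold change.

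The changes with time were alike in the 2 treatments, which share no array. Over the 30 members above background the log2 changes with [BF/S+L/Ep] and with DMSO correlated at r = 0.944 (Spearman's rho 0.933) and had the same sign in 28 genes, against r = 0.613 and 74.5% of 10864 genes above background. These are correlations across genes measured on the same arrays and are given as a description. The 10864 genes were not matched to the members for brightness, and its part in these values was not tested. Of the called members, 8 passed in both treatments, 2 with [BF/S+L/Ep] alone and 1 with DMSO alone. The difference between treatments in the change with time did not pass for any of these 3, at 0.08 for Aldoc, 0.14 for Pfkl and -0.19 for Higd1a on the log2 scale (limma adjusted p = 1.0 for each). The median size of the members' log2 change was 0.38 with [BF/S+L/Ep] and 0.43 with DMSO, against 0.23 and 0.21 over all genes above background. Because members rose and fell, their median was near 0, at 0.05 with [BF/S+L/Ep] and -0.06 with DMSO, against -0.04 and -0.03 over all genes, and with each array centred on its own median the member medians were -0.01 and -0.14.

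**Figure D3:**
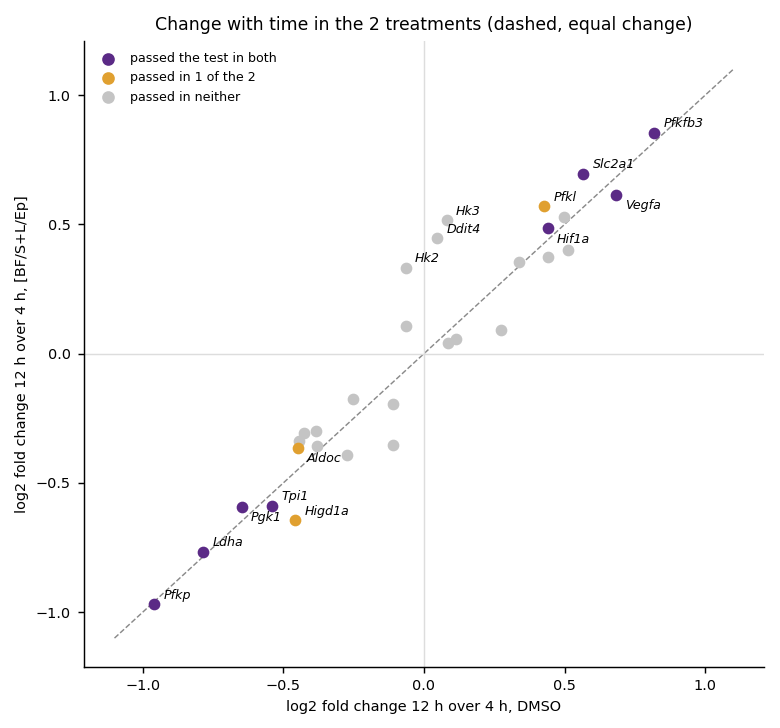
Log2 fold change 12 h over 4 h in DCs given [BF/S+L/Ep] (vertical axis) against DCs given DMSO (horizontal axis) for the 30 members above background, each point a gene. The dashed line marks equal change, and colours mark genes that passed the test in both treatments, in 1 or in neither. Points follow the line, and Hk2, Hk3 and Ddit4 lie above it.

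Several of these calls rest on few arrays. Pfkp, Pfkfb3 and Ldha passed in both treatments whichever of the 8 arrays was left out, and Slc2a1 did so with [BF/S+L/Ep]. Leaving out any 1 [BF/S+L/Ep] array, of 12 h or of 4 h, lost calls with [BF/S+L/Ep], that of Pfkl each time. Leaving out any 1 of the 4 DMSO arrays lost most calls with DMSO. The lone array was then taken to vary like the other groups. With each array centred on its median, 2 members passed higher and 3 lower with [BF/S+L/Ep], and 1 higher and 2 lower with DMSO. Without the trend of variance on signal in the fit no member passed, with 12 members at an unadjusted p under 0.05 with [BF/S+L/Ep] and 10 with DMSO.

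To show the upstream sequence of genes that moved together with time, the 250 bases before the RefSeq start (build GRCm38.p6) were searched on both strands for ACGTG and GCGTG, the core letters to which HIF is known to bind. CACGTG, the E-box of Myc and USF factors, holds ACGTG on both strands and cannot be told apart from it by these letters. Of 51 start windows of the 33 members in the table, 78.4% held either motif, against 55.7% of 11348 windows of genes above background and 38.6% of 32851 windows of all genes, at GC contents of 61.3%, 59.8% and 53.2%. Among members called in both treatments, all 4 that rose and 3 of the 4 that fell held a match in at least 1 window, Tpi1 being the one without. Vegfa had a match in 1 window and none in its other. These are counts of genes, some with several windows, and the shares above are of windows. The share of all genes with a match in at least 1 window was not taken, so these counts have no background here. The windows of a pair that rose, Slc2a1 (chr4:119108495-119108744, + strand) and Pfkfb3 (chr2:11502091-11502340, − strand), and of a pair that fell, Ldha (chr7:46845554-46845803, + strand) and Pgk1 (chrX:106186850-106187099, + strand), are shown 5′ to 3′ in the direction of the gene with the motifs in capitals, since matches stood upstream of genes that moved in opposite directions.
Slc2a1: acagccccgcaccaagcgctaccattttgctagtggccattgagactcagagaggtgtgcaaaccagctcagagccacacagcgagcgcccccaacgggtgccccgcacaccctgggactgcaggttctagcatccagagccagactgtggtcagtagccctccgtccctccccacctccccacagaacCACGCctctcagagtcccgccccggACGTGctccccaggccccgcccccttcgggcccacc
Pfkfb3: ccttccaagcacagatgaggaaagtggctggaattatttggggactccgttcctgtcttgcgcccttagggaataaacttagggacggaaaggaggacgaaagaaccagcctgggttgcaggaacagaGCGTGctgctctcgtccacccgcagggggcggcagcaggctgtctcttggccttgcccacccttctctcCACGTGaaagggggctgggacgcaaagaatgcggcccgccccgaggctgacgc
Ldha: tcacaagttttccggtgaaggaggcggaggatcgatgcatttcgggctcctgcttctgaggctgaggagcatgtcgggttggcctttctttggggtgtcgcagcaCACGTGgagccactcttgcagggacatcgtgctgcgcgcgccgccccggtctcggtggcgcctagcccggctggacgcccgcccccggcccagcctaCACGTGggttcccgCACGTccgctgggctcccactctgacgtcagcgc
Pgk1: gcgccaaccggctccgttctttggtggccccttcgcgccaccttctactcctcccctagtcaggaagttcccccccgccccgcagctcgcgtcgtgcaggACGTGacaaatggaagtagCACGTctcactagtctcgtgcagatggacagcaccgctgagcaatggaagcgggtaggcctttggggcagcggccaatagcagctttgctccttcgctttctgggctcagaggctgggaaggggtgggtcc
A match is a run of letters and not a measured binding site, and Ldha and Pfkfb3 each have a further annotated start with a match in its own window.

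The second question was whether [BF/S+L/Ep] moved these genes relative to the vehicle. At neither time did a member pass. At 12 h none of the 32 tested members was called, while 0.0200% of all probe sets were, and 2 members (Ddit4 and Pdk1) had an unadjusted p under 0.05, while 5.96% of all probe sets did. At 4 h none was called, against 0.00444% of all probe sets, and 2 members (Hk2 and Hk3) had an unadjusted p under 0.05, against 4.97%. With the times averaged none was called against 0.107%, and 3 had an unadjusted p under 0.05 (Ddit4, Pdk1 and Hk3) against 7.08%. The response at 12 h minus that at 4 h was called for no member and for 0.00% of probe sets, and 1 member (Hk2) had an unadjusted p under 0.05 against 3.66%.

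**Figure D4:**
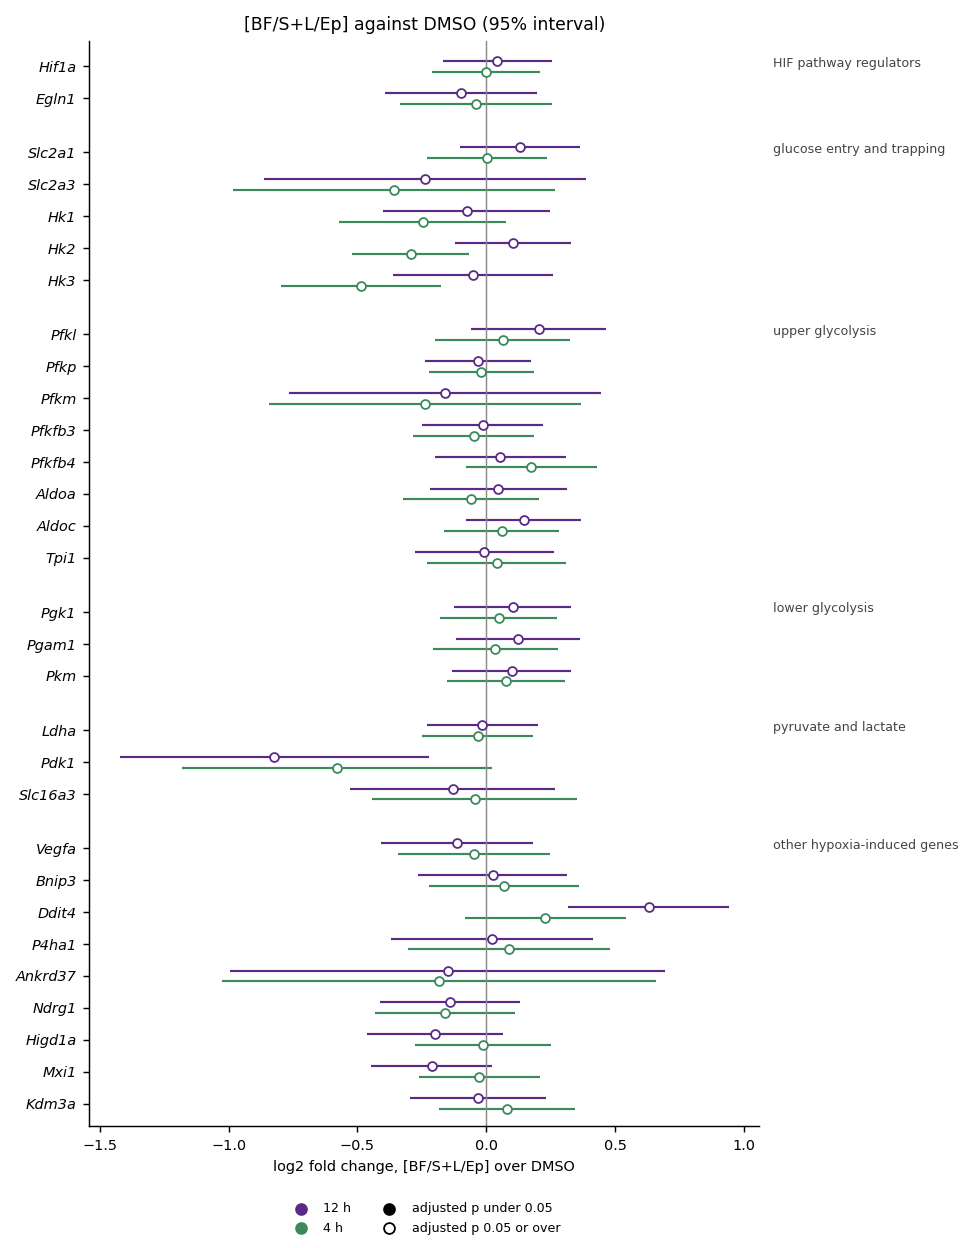
Log2 fold change, [BF/S+L/Ep] over DMSO, with its 95% interval for the 30 members above background at 12 h (purple, upper of each pair) and 4 h (green, lower), grouped by role. No point is filled, as none had an adjusted p under 0.05. Most points lie within 0.25 of 0, and Ddit4 at 12 h (0.63) and Pdk1 at 12 h (-0.82) lie farthest out.

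Within the spread of these arrays most members lay in a narrow range. Of the 30 above background, 28 lay within 0.25 of 0 on the log2 scale at 12 h and 26 at 4 h, or 93.3% and 86.7%, against 72.1% and 76.6% of all genes above background. Those genes were not matched to the members for brightness, and its part in these shares was not tested. The median member was at -0.01 at 12 h and -0.02 at 4 h, against -0.02 and -0.01 over all genes, and with each array centred on its median at 0.06 and 0.03. Arrays of the 2 treatments did not overlap for 6 members higher and 5 lower at 12 h, where 15.1% and 19.7% of all probe sets did not, and for 5 higher and 4 lower at 4 h, where 15.1% and 17.6% did not, so these counts of 32 were near the background. No member above background changed 2-fold, taken as a ratio of means and of both same-numbered arrays of at least 2 or at most 0.5. P4ha2 met these ratios at 12 h with all its arrays under background.

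At their brightest probe sets, the enzymes that fell with time lay close between the treatments. For Ldha the log2 difference between [BF/S+L/Ep] and DMSO was -0.02 (95% interval -0.23 to 0.20) at 12 h and -0.03 (-0.25 to 0.18) at 4 h, for Pfkp -0.03 (-0.24 to 0.17) and -0.02 (-0.22 to 0.18), and for Pgk1 0.10 (-0.12 to 0.33) and 0.05 (-0.18 to 0.28). Hif1a read 0.04 (-0.17 to 0.25) at 12 h and -0.00 (-0.21 to 0.21) at 4 h, and Pfkfb3 -0.01 (-0.25 to 0.22) and -0.05 (-0.28 to 0.19). At these probe sets the farthest bound among these 5 genes was 0.33. Among the other members that passed the test of time, bounds reached -0.463 for Higd1a and 0.466 for Pfkl, both at 12 h. Further probe sets of the 5 genes, where above background on all 8 arrays, spread more widely. Their log2 differences were 0.096 (Pgk1) to 0.76 (Pfkp) at 12 h. At 4 h they were -0.241 to 0.681, both of Hif1a, and none passed. Intervals were widest for the dim genes, as for Ankrd37 (-0.99 to 0.69 at 12 h) and Slc2a3 (-0.86 to 0.39 at 12 h).

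Ddit4, an inhibitor of mTORC1 induced by low oxygen and by many other stresses, had the smallest p of the members. It read 983 and 915 in DCs given [BF/S+L/Ep] against 649.6 and 578 in DCs given DMSO at 12 h, and 659 and 734 against 585 and 601 at 4 h. Both [BF/S+L/Ep] arrays were above both DMSO arrays at each time, and the log2 difference was 0.63 (SE 0.14, limma adjusted p = 0.339) at 12 h, 0.23 (SE 0.14, adjusted p = 0.997) at 4 h and 0.43 (SE 0.10, adjusted p = 0.249) over both times. Ddit4 has a single probe set. It alone of the members above background reached 1.5-fold at 12 h by the rule on ratios, at 1.55-fold.

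Pdk1 read 195 and 166 in DCs given [BF/S+L/Ep] against 276 and 367 in DCs given DMSO at 12 h, and 227 and 234 against 440.3 and 268 at 4 h. Its [BF/S+L/Ep] arrays lay below its DMSO arrays at both times, at a log2 difference of -0.82 (SE 0.28, limma adjusted p = 0.697) at 12 h and -0.58 (SE 0.28, adjusted p = 0.997) at 4 h. The other 3 probe sets of Pdk1, all dim, disagreed, at -0.60 to 2.55 at 12 h and -1.28 to 0.21 at 4 h, and none passed.

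The members with an unadjusted p under 0.05 at 4 h were the hexokinases Hk2 and Hk3, and not Hk1. Of all probe sets 4.97% had one, so this is near the background. Hk2 read 1914 and 1939 in DCs given [BF/S+L/Ep] against 1777 and 1808 in DCs given DMSO at 12 h, and 1530.0 and 1531 against 1904 and 1848 at 4 h. At 12 h the [BF/S+L/Ep] arrays were above the DMSO arrays, at 0.10 (SE 0.10, limma adjusted p = 0.941), and at 4 h they were below, at -0.29 (SE 0.10, adjusted p = 0.979). Hk3 read 920.4 and 1094 in DCs given [BF/S+L/Ep] against 1146 and 943 in DCs given DMSO at 12 h, and 696 and 708 against 991 and 974 at 4 h. Its treatments overlapped at 12 h, at -0.05, and both [BF/S+L/Ep] arrays were lower at 4 h, at -0.48 (SE 0.14, limma adjusted p = 0.932). The second probe set of Hk3 read -0.17 at 12 h and 0.12 at 4 h. The brightest one carries the suffix for probes that can bind related transcripts, as do those of Slc2a3, Aldoa, Tpi1 and Ndrg1.

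A wider list of 60 genes of the same pathways, 52 of them with a probe set and 45 above background, was read for comparison. With time, 1 rose and 3 fell with [BF/S+L/Ep], and 1 rose and 2 fell with DMSO, of 52 tested in each case. Among all probe sets 1.55% were called higher and 1.31% lower with [BF/S+L/Ep], and 1.18% higher and 0.921% lower with DMSO. Among genes above background, the better comparison here too, it was 3.60% and 3.51% with [BF/S+L/Ep], and 2.97% and 2.58% with DMSO. Mif, a cytokine known to be induced by HIF, read 3229 and 3295 at 12 h against 8871 and 8107 at 4 h in DCs given [BF/S+L/Ep], and 3371 and 3663 at 12 h against 8172 and 8482 at 4 h in DCs given DMSO. This was a larger fall than that of any member, at -1.38 (SE 0.10, limma adjusted p = 7.96e-06) with [BF/S+L/Ep] and -1.24 (SE 0.10, adjusted p = 1.76e-05) with DMSO, with arrays of the 2 times far apart. Fam162a, a mitochondrial protein induced by low oxygen, fell by 1.01 on the log2 scale with [BF/S+L/Ep] (adjusted p = 0.00164) and by 0.78 with DMSO (adjusted p = 0.012).

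Bpgm, the bisphosphoglycerate mutase best known from red cells, read 167 and 232 at 12 h against 423 and 378 at 4 h in DCs given [BF/S+L/Ep], and 234 and 239 at 12 h against 336 and 312 at 4 h in DCs given DMSO, and passed with [BF/S+L/Ep] alone, at -1.02 (limma adjusted p = 0.0342), where DMSO gave -0.45 (adjusted p = 0.48). Eno2, an enolase isoform best known from neurons, read 381 and 313 at 12 h against 162 and 185 at 4 h in DCs given [BF/S+L/Ep], and 352 and 411 at 12 h against 206 and 142 at 4 h in DCs given DMSO, at a log2 change of 0.995 (adjusted p = 0.067) with [BF/S+L/Ep] and a rise of 1.16 (adjusted p = 0.0393) with DMSO. The differences between treatments for these did not pass, at -0.57 for Bpgm and -0.16 for Eno2 (adjusted p = 1.0 for both).

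Relative to the vehicle no gene of the wider list passed, with 4 of 52 at an unadjusted p under 0.05 at 12 h and 2 at 4 h, where 5.96% and 4.97% of all probe sets had one. Pdk3, another kinase of pyruvate dehydrogenase, came closest. It read 2247 and 2185 in DCs given [BF/S+L/Ep] against 1455 and 1432 in DCs given DMSO at 12 h, and 1418 and 1462 against 1229 and 1153 at 4 h. Both [BF/S+L/Ep] arrays were above both DMSO arrays at each time, at a log2 difference of 0.62 (SE 0.11, limma adjusted p = 0.113) at 12 h, 0.28 (adjusted p = 0.988) at 4 h and 0.45 (SE 0.08, adjusted p = 0.0614) over both, and it passed the test of time with [BF/S+L/Ep] at 0.62 (adjusted p = 0.00747) and not with DMSO at 0.28 (adjusted p = 0.297), a difference that was not called (0.34, adjusted p = 1.0). Tfrc, the transferrin receptor, read 5023 and 4406 in DCs given [BF/S+L/Ep] against 3208 and 3014 in DCs given DMSO at 12 h, and 3628 and 3402 against 3063 and 3204 at 4 h, a log2 difference of 0.60 (adjusted p = 0.113) at 12 h. Slc2a6, a glucose carrier of myeloid cells, read 0.46 (adjusted p = 0.437) at 12 h and 0.30 (adjusted p = 0.988) at 4 h. Pdk2, next by p at 4 h, read -0.33 (adjusted p = 0.997), and Plod1, next by p for the difference of the responses, -0.45 (adjusted p = 1.0).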

How the data were processed

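Total RNA of 8 BMDC samples was labelled with biotin and hybridised to mouse whole-genome arrays, 2 for each of 4 groups. The deposited values are MAS5 signals, a linear intensity per probe set, which the authors made with MAS5 and scaled to a trimmed mean of 500 (2% cut at each end). The labels give 200 U/mL GM-CSF and 10 µg RNA, where the methods give 1000 U/mL and 7 µg. No further normalization was applied. The log2 signals of 45037 probe sets (64 control probe sets left out) were fitted with 4 group means in limma 3.58.1 (R 4.3.3, lmFit and eBayes with an intensity trend), with two-sided p-values, Benjamini-Hochberg adjustment over all probe sets and a threshold of 0.05, on 4 residual degrees of freedom. The fit was tested on simulated data. Intervals are 95%. Genes were named from GEO's platform annotation, which can be old, and a member was read at its brightest probe set with 1 symbol. All 35 members were named by rule, as were genes of the wider list that passed a test or had the 3 smallest p-values in a comparison of [BF/S+L/Ep] with DMSO. The members, lists and tests were chosen with earlier results of these data known. Gapdh was tested with the control probe sets added, a choice made after seeing the data. The number of arrays limits the precision. Alternatives were quantile normalization, median centring, an offset of 50, no dim probe sets, other moderation, a replicate block, other samples in the fit, averaged probe sets and each array left out.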

Additional observations from a re-analysis of the deposited data

Results flagged for a closer look

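Hk2, the hexokinase isoform that HIF induces, was picked out because its response to [BF/S+L/Ep] ran in opposite directions at the 2 times without overlap of the arrays: above DMSO on both arrays at 12 h and below it on both at 4 h. The response at 12 h minus that at 4 h was 0.40 on the log2 scale (SE 0.15, unadjusted p = 0.0189). It did not pass the correction over all probe sets (limma adjusted p = 1.0), and its adjusted p was 0.941 to 1.0 with each array left out.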

How the results depend on the processing

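No member was called for [BF/S+L/Ep] against DMSO at 12 h, at 4 h, averaged over times or for the difference of the responses under any alternative. For 12 h against 4 h the count was 10 with [BF/S+L/Ep] and 9 with DMSO. It was 5 and 3 with median centring, 0 and 0 without the intensity trend (12 and 10 at an unadjusted p under 0.05), and 4 with [BF/S+L/Ep] when only its 4 arrays were fitted. With each array left out it ranged over 4 to 10 and 3 to 10. With the replicate number as a block, it was 10 and 8, and no member was called for [BF/S+L/Ep] against DMSO. Deviations of same-numbered arrays correlated at -0.03 to 0.11 over 23355 probe sets. These values cannot decide whether same-numbered arrays come from 1 culture or experiment, which is not given for each array. The median log2 change of the members with time was -0.009 with [BF/S+L/Ep] and -0.139 with DMSO under median centring and 0.023 with [BF/S+L/Ep] under quantile normalization, and ranged over -0.02 to 0.054 and -0.064 to 0.014 with each array left out. The median against DMSO was 0.059 at 12 h and 0.032 at 4 h under median centring and -0.001 at 4 h under quantile normalization, and ranged over -0.032 to 0.042 at 12 h and -0.036 to 0.04 at 4 h with each array left out. The count of members above background changed 2-fold at 12 h was 0, and 1 with a fold of 1.5 (Ddit4) or with dim probe sets kept (P4ha2). Other results kept their direction: of the single-gene values under alternatives, 358 kept their side of the threshold, 97 lost it and none reversed. The 358 include values of Ddit4, Hk2, Hk3 and Pdk1 in comparisons with DMSO. These were not called in the main fit and had no call to lose. All 97 lost calls were of changes between 12 h and 4 h. The cause was not tested. With 2 arrays a group, small changes of dim genes were not detectable.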
